A study of Mus musculus with 2 samples.

Results

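Cell cycle genes were followed in single spleen cells of the mouse as a set of 40 genes picked by symbol. All 40 were present among the 32285 features counted: 13 serve DNA replication in S phase, 24 serve G2 and mitosis, and 3 belong to microtubules. The design holds 1 library of splenocytes from M694I knock-in mice and 1 library from wild-type controls of matching age. The knock-in carries the M694I change in Mefv, the gene of the inflammasome sensor pyrin, and the wild-type library comes from mice without it. Titles name 1 mouse for each library. The design text speaks of mice, so whether a library holds 1 spleen or pooled spleens is unclear, and for zygosity, strain, age and sex nothing is given in the labels. Spleens had been dispersed mechanically and freed of red cells by lysis before droplet capture of transcript 3' ends, in which a unique molecular identifier (UMI) marks each captured RNA molecule. Mefv itself had 75 UMIs in the knock-in and 144 in the wild-type library, and a 3' count does not show whether its transcripts carry the change. With 1 library per genotype no test was possible. Every interval is a 95% interval for counting error only, and each difference is one between these libraries.

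A cell that divides first loads the Mcm2 to Mcm7 helicase on DNA, makes nucleotides and copies its genome, and then condenses and separates its chromosomes. Replication genes are switched on by E2F factors from late G1 onwards. Mitotic genes are held back by the DREAM complex in resting cells and activated later, by B-MYB and FOXM1, largely through a promoter element called CHR and through CCAAT boxes bound by NF-Y. Most spleen lymphocytes are resting. Dividing cells in spleen include germinal centre B cells, plasmablasts, activated T cells and residual blood-forming precursors.

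The promoters show how the groups differ in sequence. Promoter windows from RefSeq (GRCm38.p6, 250 bases before to 50 bases after the start) were matched for 34 of the 40 genes. A gene was counted when any of its windows held the letters, while the shares over all are per window. The letters TTTGAA of the CHR, on either strand, were in 16 of 21 mitotic genes, 1 of 11 S-phase genes and 0 of 2 microtubule genes, against 17.9% of all 32851 windows. TTCGAA, a CHR variant, was in 3 of 21 mitotic and 1 of 11 S-phase genes, against 1.56% of all windows. The E2F letters TTCCCGC or TTGGCGC were in 3 of 21 mitotic and 6 of 11 S-phase genes, against 6.81% of all windows. CCAAT was in 19 of 21 mitotic, 9 of 11 S-phase and 1 of 2 microtubule genes, against 37.4% of all windows. These letters are a description of the windows, not bound sites. The 250 bases before the start are printed for 3 mitotic and 2 S-phase genes whose windows lie outside the annotated gene body, 5' to 3' on the gene's strand, with CHR, CHR variant, E2F and CCAAT letters of either strand in capitals. They lie on the minus strand at chr7:135716380-135716629 (Mki67), chr11:99024190-99024439 (Top2a), chr9:70421555-70421804 (Ccnb2) and chr1:128359706-128359955 (Mcm6), and on the plus strand at chr8:75109259-75109508 (Mcm5).
Mki67: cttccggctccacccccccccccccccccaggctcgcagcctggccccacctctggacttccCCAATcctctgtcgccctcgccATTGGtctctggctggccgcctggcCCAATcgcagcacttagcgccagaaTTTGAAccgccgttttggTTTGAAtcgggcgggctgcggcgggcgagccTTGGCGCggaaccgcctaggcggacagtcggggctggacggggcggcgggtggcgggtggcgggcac
Top2a: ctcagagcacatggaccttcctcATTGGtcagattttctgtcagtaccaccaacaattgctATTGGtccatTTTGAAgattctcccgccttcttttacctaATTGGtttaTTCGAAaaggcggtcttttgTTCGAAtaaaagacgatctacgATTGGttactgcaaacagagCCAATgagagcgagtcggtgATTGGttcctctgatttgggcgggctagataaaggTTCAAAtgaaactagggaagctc
Ccnb2: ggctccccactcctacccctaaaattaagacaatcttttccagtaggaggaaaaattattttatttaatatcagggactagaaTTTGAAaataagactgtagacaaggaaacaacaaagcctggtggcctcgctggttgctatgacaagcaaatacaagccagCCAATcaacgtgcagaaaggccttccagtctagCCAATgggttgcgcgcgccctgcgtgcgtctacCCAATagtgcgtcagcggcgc
Mcm6: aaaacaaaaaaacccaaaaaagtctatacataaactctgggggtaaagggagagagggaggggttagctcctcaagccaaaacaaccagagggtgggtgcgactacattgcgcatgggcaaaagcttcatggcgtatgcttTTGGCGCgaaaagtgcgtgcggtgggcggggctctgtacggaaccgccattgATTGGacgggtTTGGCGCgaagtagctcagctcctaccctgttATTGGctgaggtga
Mcm5: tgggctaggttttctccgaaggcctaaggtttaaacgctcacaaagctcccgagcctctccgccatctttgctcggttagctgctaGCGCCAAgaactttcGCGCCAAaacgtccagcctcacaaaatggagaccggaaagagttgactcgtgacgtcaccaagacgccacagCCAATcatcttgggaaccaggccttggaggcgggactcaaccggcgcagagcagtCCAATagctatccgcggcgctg
The Mki67 window held 2 CHR matches, 1 E2F match and 3 CCAAT matches. The Top2a window held 2 CHR, 2 CHR variant and 6 CCAAT matches, and the Ccnb2 window 1 CHR and 3 CCAAT matches. In Mcm6 and in Mcm5 the E2F letters and the CCAAT letters each occurred at 2 places, with no CHR letters in these bases.

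The knock-in library kept 8374 of 9000 barcodes with a median of 2017 UMIs per cell, and the wild-type library 9478 of 10449 with a median of 2522. The kept cells held 23729015 and 29993419 UMIs. Cells were gated by marker genes fixed for B, plasma, T, NK, myeloid and erythroid cells; B-gated cells were 66.7% of knock-in and 68.4% of wild-type cells, T-gated cells 22.0% and 20.7%. Further markers were checked in the gates. Bank1, Blk or Cd22 was found in 64.7% and 69.8% of B-gated cells, but in 2.28% and 3.78% of T-gated cells. Cd2, Lck or Thy1 was found in 83.8% and 82.4% of T-gated cells. The same T list was also found in 57.8% and 58.8% of B-gated and 66.7% and 66.4% of NK-gated cells, so it separated the gates poorly. The plasma gate held 156 knock-in and 31 wild-type cells, the NK gate 123 and 253, the myeloid gate 301 and 395, and the erythroid gate 19 and 3. In the libraries 27 barcode sequences were shared, of which 1 in the knock-in and 0 in the wild-type library were kept cells rich in mitotic transcripts.

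Over all kept cells, mitotic genes were higher in the knock-in library, while the replication genes with the most UMIs were close to level. A gene was called higher or lower at a 1.5-fold difference in CPM, a gene's UMIs scaled to a common library total, among genes with at least 50 UMIs over both libraries. Of the 24 mitotic genes, 18 were called higher and 0 lower, beside 5.67% of 11779 genes called higher and 7.2% called lower. Their median log2 ratio of knock-in over wild-type was 1.15, against -0.08 for all genes, and all 24 had a ratio above 0. Of the 13 S-phase genes, 3 were called higher and 0 lower, with a median log2 ratio of 0.10. Of the 3 microtubule genes, 1 was called higher and 0 lower, with a median of 0.33. A sum over all cells does not tell more dividing cells from more of these transcripts in each of them.

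**Figure D1:**
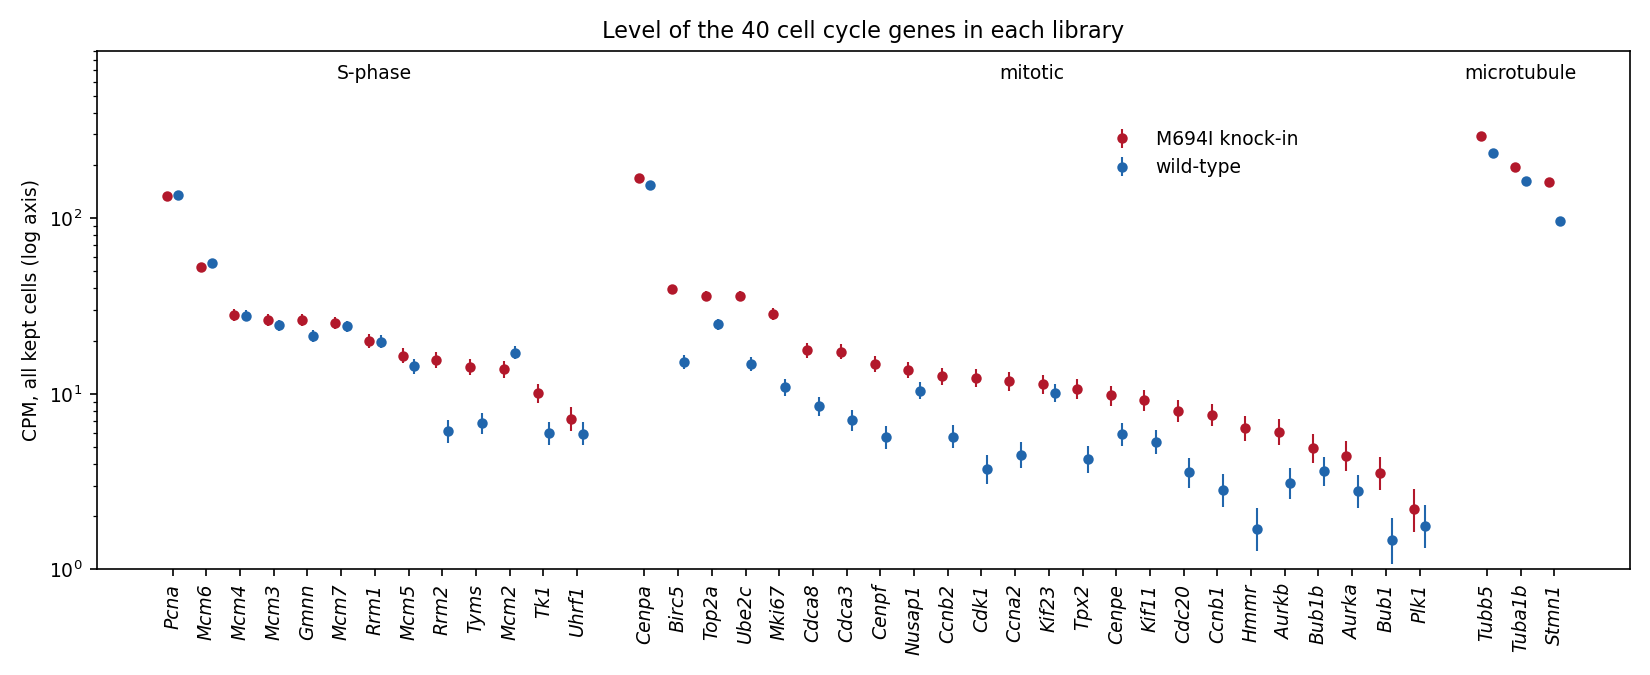
Level of each of the 40 genes in CPM over all kept cells of the M694I knock-in and the wild-type library (log axis), with 95% Poisson intervals for counting error, ordered within each group by the knock-in level. Knock-in points lie above wild-type points for all 24 mitotic genes, while Pcna, Mcm6, Mcm4 and Rrm1 differ little between the libraries.

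Birc5 codes for survivin, a subunit of the chromosomal passenger complex that corrects faulty attachments of chromosomes to the spindle. It had 932 UMIs (39.3 CPM) in the knock-in library, against 454 UMIs (15.1 CPM) in the wild-type library, a log2 ratio of 1.38 (1.21 to 1.54). Cdca8, which codes for borealin of the same complex, had 421 UMIs in the knock-in and 255 in the wild-type library (17.7 and 8.50 CPM, log2 ratio 1.06). Aurkb, its kinase, had 144 and 93 UMIs (6.07 and 3.1 CPM, log2 ratio 0.97). All 3 subunits were called higher in the knock-in library.

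Among cyclins and kinases, Cdk1, the kinase that drives entry into mitosis, had 291 UMIs in the knock-in and 112 in the wild-type library (12.3 and 3.73 CPM, log2 ratio 1.72). Its partner cyclins Ccna2, Ccnb1 and Ccnb2 had log2 ratios of 1.39, 1.42 and 1.14, from 279, 180 and 298 knock-in UMIs and 135, 85 and 171 wild-type UMIs. Aurka, a kinase of spindle poles, was also called higher, with 105 UMIs in the knock-in and 84 in the wild-type library (log2 ratio 0.66). Plk1, another mitotic kinase, had 52 and 53 UMIs, the fewest of the group in the knock-in library, and its log2 ratio of 0.31 carried an interval of -0.27 to 0.89. The kinases thus differed widely in how well they were measured.

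Ube2c is the ubiquitin carrier of the anaphase-promoting complex, which destroys cyclins at the end of mitosis. It had 854 UMIs (36.0 CPM) in the knock-in and 445 UMIs (14.8 CPM) in the wild-type library, a log2 ratio of 1.28 (1.11 to 1.45). Cdc20, an activator of that complex, had 189 and 107 UMIs (log2 ratio 1.16), and Cdca3, a trigger of mitotic entry, had 412 and 212 UMIs (17.4 and 7.07 CPM, log2 ratio 1.30). The checkpoint kinase Bub1 had 84 and 44 UMIs (log2 ratio 1.27). Its relative Bub1b, which restrains Cdc20, had 116 and 109 UMIs and was not called (log2 ratio 0.43, 0.04 to 0.82).

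Mki67, the proliferation marker that coats mitotic chromosomes, had 676 UMIs (28.5 CPM) in the knock-in library, against 326 UMIs (10.9 CPM) in the wild-type library, a log2 ratio of 1.39 (1.20 to 1.59) that came to 0.74 with each gate given the same share of cells in both libraries. Top2a, the topoisomerase that untangles sister DNA, had 858 and 745 UMIs (36.2 and 24.8 CPM) and was not called, at 0.54 (0.40 to 0.69). The kinetochore genes Cenpf and Cenpe had 350 and 232 UMIs in the knock-in and 170 and 177 in the wild-type library (log2 ratios 1.38 and 0.73). Cenpa codes for the histone H3 variant of centromeres and held the most UMIs of the group. It had 4047 UMIs (171 CPM) in the knock-in and 4626 UMIs (154 CPM) in the wild-type library, a log2 ratio of 0.15 (0.08 to 0.21), the lowest of the 24.

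The largest ratio of the group was that of Hmmr, a spindle protein also known as a hyaluronan receptor, with 151 UMIs (6.36 CPM) in the knock-in and 51 UMIs (1.70 CPM) in the wild-type library (log2 ratio 1.90, 1.44 to 2.39; 1.22 with each cell thinned to 1000 UMIs). The spindle assembly factor Tpx2 had 253 and 127 UMIs (log2 ratio 1.33), and Kif11, the motor that pushes spindle poles apart, had 218 and 159 UMIs (log2 ratio 0.79). Nusap1, which bundles spindle microtubules, had 325 and 313 UMIs (13.7 and 10.4 CPM, log2 ratio 0.39), and Kif23, a motor of cytokinesis, had 268 and 303 UMIs (11.3 and 10.1 CPM, log2 ratio 0.16); neither was called. Top2a, Nusap1 and Kif23 had log2 ratios of -0.31, -0.31 and -0.11 when each cell was thinned to 1000 UMIs and thereby weighed alike, so their direction depended on that choice.

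Replication genes showed a split. The 6 helicase subunits had log2 ratios between -0.31 and 0.21. Mcm6 had 1248 UMIs (52.6 CPM) in the knock-in and 1675 UMIs (55.8 CPM) in the wild-type library, a log2 ratio of -0.09 (-0.19 to 0.02). Mcm4 had 669 and 836 UMIs (28.2 and 27.9 CPM, 0.02), Mcm3 628 and 739 (26.5 and 24.6 CPM, 0.10), and Mcm7 601 and 725 (25.3 and 24.2 CPM, 0.07). Among cells under 5% mitochondrial UMIs, Mcm4 stood at -0.09 and Mcm7 at -0.06. Mcm2 was the lowest of the 13, with 328 UMIs (13.8 CPM) in the knock-in and 515 UMIs (17.2 CPM) in the wild-type library, a log2 ratio of -0.31 (-0.52 to -0.11) that was not called.

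Pcna, the sliding clamp of DNA polymerases, had 3177 UMIs (134 CPM) in the knock-in and 4063 UMIs (135 CPM) in the wild-type library, a log2 ratio of -0.02 (-0.08 to 0.05). Gmnn codes for geminin, which blocks a repeat of replication, and had 626 and 644 UMIs (26.4 and 21.5 CPM, 0.30), with a ratio of -0.07 after thinning each cell to 1000 UMIs. The 3 S-phase genes that were called all make DNA precursors. Rrm2, the regulated subunit of ribonucleotide reductase, had 371 UMIs (15.6 CPM) in the knock-in and 183 UMIs (6.1 CPM) in the wild-type library, a log2 ratio of 1.36 (1.10 to 1.62). Thymidylate synthase Tyms had 337 and 204 UMIs (log2 ratio 1.06, 0.81 to 1.32), and thymidine kinase Tk1 had 239 and 179 UMIs (0.76, 0.47 to 1.04). Rrm1, the other subunit of the reductase, had 476 and 595 UMIs and a log2 ratio of 0.02.

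Among microtubule genes, Stmn1, which codes for the tubulin-binding protein stathmin, had 3827 UMIs (161 CPM) in the knock-in and 2878 UMIs (96.0 CPM) in the wild-type library, a log2 ratio of 0.75 (0.68 to 0.82). Stmn1 was no longer called after thinning (0.56) or with cells under 5% mitochondrial UMIs (0.55). Tubb5 had 6994 and 7053 UMIs (295 and 235 CPM, 0.33), and Tuba1b had 4626 and 4903 UMIs (195 and 163 CPM, 0.25). Both tubulins have close paralogues whose reads could be split by the counting: Tuba1a had 5167 and 6157 UMIs, Tuba1c 2498 and 3185, and Tubb4b 6699 and 7402.

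The genes also differed in how far their UMIs sat in cells that carried other mitotic transcripts. For each gene, the share of its UMIs in cells with UMIs from at least 3 other mitotic genes was taken. This share was 97.6% in the knock-in and 95.6% in the wild-type library for Birc5, 98.2% and 92.6% for Ccna2, and 95.4% and 96.1% for Hmmr. For Cenpa it was 19.9% and 8.95%, since Cenpa was detected in 2476 knock-in and 3014 wild-type cells. Pcna had 22.0% and 13.7%, and Mcm6 24.8% and 15.7%. The median share was 86.5% in the knock-in and 75.4% in the wild-type library over the mitotic genes, and 42.5% and 31.1% over the S-phase genes.

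Genes with a higher share had a higher ratio between the libraries. Across the 40 genes, the share (mean of the libraries) and the log2 ratio over all cells had a Pearson correlation of 0.87 and a Spearman correlation of 0.87. This is a description: the genes share the same cells and libraries, and both measures contain the same UMIs. Rrm2, at 88.9% and 83.6%, and Tyms, at 76.3% and 69.1%, stood with the mitotic genes, while Kif23, at 50% and 25.4%, and Cenpa stood with the helicase subunits.

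**Figure D2:**
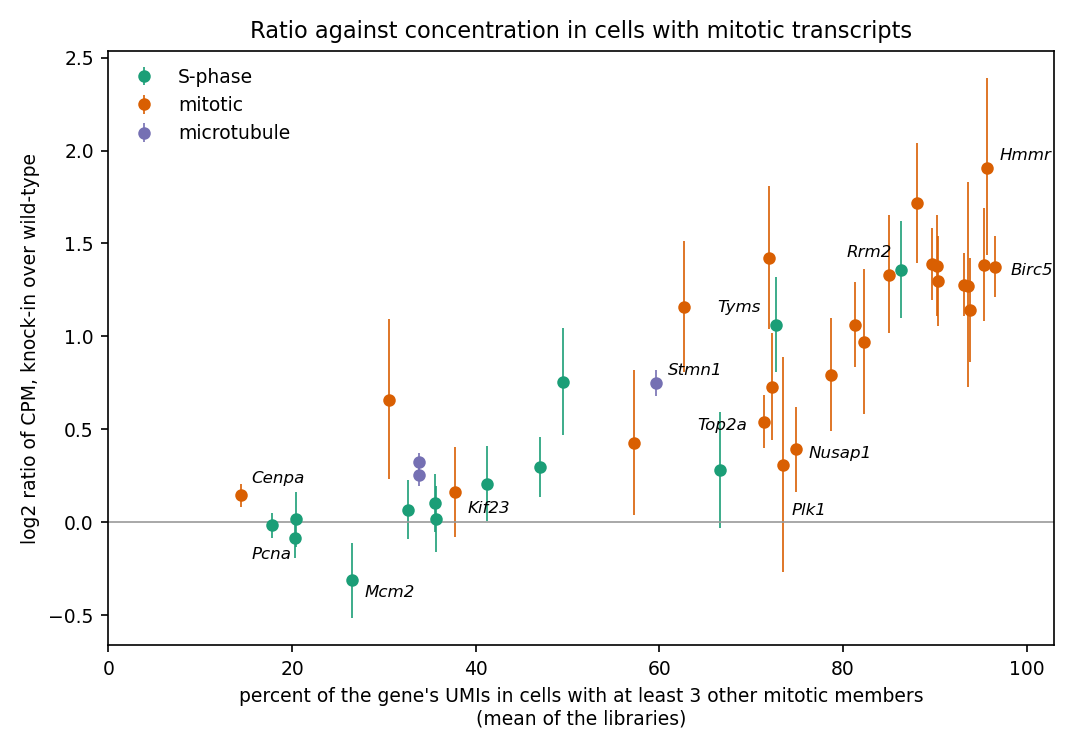
Each point is 1 of the 40 genes; the horizontal axis gives the percent of its UMIs in cells with at least 3 other mitotic genes and the vertical axis the log2 ratio of CPM, knock-in over wild-type, with its 95% interval. Ratios lie near 0 for genes spread over many cells, such as Pcna and Cenpa, and above 1 for most genes beyond 80%, such as Birc5 and Hmmr.

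Inside those cells the mitotic median lay closer to 0 than over all cells. With CPM taken within cells that held at least 3 other mitotic genes, the mitotic genes had a median log2 ratio of 0.37 and the S-phase genes one of -0.26. In the cells outside, the medians were 0.06 and -0.11. The mitotic genes with an interval above 0 inside these cells were 15 of 24, among them Hmmr at 0.97 (0.49 to 1.47), Mki67 at 0.53 (0.33 to 0.74) and Birc5 at 0.48 (0.31 to 0.65), while Top2a stood at 0.00 (-0.17 to 0.17). Of the 13 S-phase genes, 5 had an interval below 0 and 2 had one above 0. The picked cells were not alike in the 2 libraries. B-gated cells with at least 3 mitotic genes had a median of 11 such genes in the knock-in and 5 in the wild-type library. In the T gate the medians were 8.5 and 11, and in the plasma gate 16.5 and 19.5. The part of this in the ratios was not tested. Since the same transcripts pick these cells, the values are given as a description only.

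The mitotic transcripts were concentrated in few cells once Cenpa was set aside. Over all 24 mitotic genes, 50% of the UMIs lay in 75 knock-in and 295 wild-type cells. Without Cenpa, a choice made after its values had been seen, 50% lay in 42 knock-in and 32 wild-type cells. For the S-phase genes it took 432 knock-in and 902 wild-type cells to reach 50%. Intervals that treat UMIs as independent are too narrow where single cells weigh so much: 1 cell held up to 9.62% of a gene's UMIs in the knock-in and up to 11.8% in the wild-type library.

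Cells with UMIs from at least 3 different mitotic genes were 205 of 8374 (2.45%, 2.13 to 2.80) in the knock-in and 139 of 9478 (1.47%, 1.23 to 1.73) in the wild-type library. The share was 1.67-fold higher in the knock-in library (1.34 to 2.09). Thinned to 1000 UMIs per cell, which left out 379 knock-in and 157 wild-type cells, it was 1.00% and 0.494%. The number 3 cuts a range and defines no cell type: 260 knock-in and 393 wild-type cells had exactly 2 such genes, and 32 and 40 had exactly 3. At 2 or more genes the unthinned shares were 5.55% and 5.61%, and at 5 or more 1.87% and 0.95%. After thinning to 1000 UMIs they were 2.03% and 1.42% at 2 or more, and 0.388% and 0.236% at 5 or more. Where the libraries part thus depends on depth per cell. Cells picked by markers of mature neutrophils, a cell type that has left the cell cycle, were taken as a background. They gave 1 of 39 knock-in and 2 of 120 wild-type cells at medians of 819 and 1080.5 UMIs. These background shares of 2.56% (0.0649 to 13.5) and 1.67% (0.202 to 5.89) are not below the shares over all cells or in the B gate, and that of the knock-in library is not below its T gate, so these shares are not set apart from background at a limit of 3 genes. At 5 or more genes the neutrophils were 0 of 39 (up to 7.69%) in the knock-in and 2 of 120 (1.67%) in the wild-type library, the second again above the 0.95% over all wild-type cells. Of these 2 wild-type cells, 1 had at least 10 mitotic genes. The background thus rests on few cells and may hold more than stray detection, which was not tested.

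**Figure D3:**
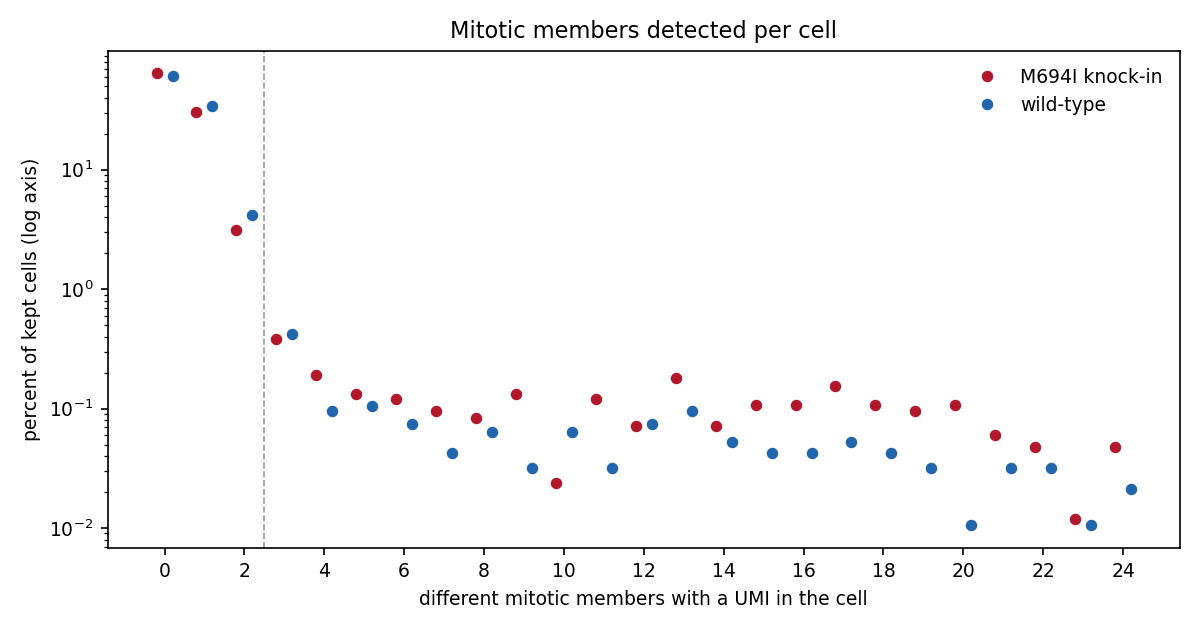
Percent of kept cells (log axis) by the number of different mitotic genes with a UMI in the cell, for the M694I knock-in and the wild-type library; the dashed line marks the limit of 3. Knock-in points lie below wild-type points at 1, 2 and 3 genes, and most knock-in points lie above the wild-type points from 4 genes onwards.

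Cells with at least 3 S-phase genes did not order the libraries in one way. They were 361 of 8374 (4.31%) in the knock-in and 436 of 9478 (4.60%) in the wild-type library, but 0.788% and 0.483% after thinning, and 1.76% and 1.06% at 5 or more genes. Both groups of genes met in 144 knock-in and 90 wild-type cells with at least 3 of each (1.72% and 0.95%). Mitotic genes alone reached 3 in 61 and 49 cells (0.728% and 0.517%), and S-phase genes alone in 217 and 346 cells (2.59% and 3.65%).

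B-gated cells held 51.2% of the mitotic UMIs in the knock-in and 54.9% in the wild-type library. There, 17 of the 24 mitotic genes were called higher and 0 lower, beside 5.17% of 10393 genes higher and 5.91% lower, and their median log2 ratio was 1.35 against -0.04 for all genes. Birc5 had 377 UMIs (27.5 CPM) in knock-in and 138 UMIs (7.18 CPM) in wild-type B-gated cells, a log2 ratio of 1.94 (1.65 to 2.23). Hmmr had 72 and 24 UMIs (2.07, 1.39 to 2.80) and Ube2c 323 and 129 UMIs (1.81, 1.51 to 2.12). Top2a had 426 and 406 UMIs (0.55) and Cenpa 2549 and 3033 UMIs (0.23), and neither was called. Single cells held up to 18.4% of a mitotic gene's UMIs in the knock-in and up to 25% in the wild-type B gate. With each cell thinned to 1000 UMIs only 6 of the 24 reached 50 UMIs, and 2 were called higher. No share over all genes was computed after thinning.

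Of the 13 S-phase genes, 2 were called higher and 0 lower in B-gated cells, beside 5.17% of 10393 genes higher and 5.91% lower. Their median log2 ratio was 0.17. The 2 called were Rrm2 (120 and 75 UMIs, 1.16) and Tyms (121 and 75 UMIs, 1.18). Pcna had 1883 UMIs in knock-in and 2345 in wild-type B-gated cells (0.17), Mcm6 706 and 1048 (-0.08), and Mcm4 384 and 509 (0.08). Stmn1 was called higher with 2049 and 1430 UMIs (1.00), while Tubb5 had 3769 and 3857 (0.45) and Tuba1b 2744 and 2960 (0.38). B-gated cells with at least 3 mitotic genes were 101 of 5589 (1.81%, 1.47 to 2.19) in the knock-in and 72 of 6482 (1.11%, 0.870 to 1.40) in the wild-type library. After thinning the shares were 0.687% and 0.295%. At 2 or more genes they were 4.53% and 5.38% without thinning, but 1.69% and 1.21% after it.

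T-gated cells showed no such difference. Of the 17 mitotic genes with enough UMIs, 1 was called higher and 2 lower, beside 6.36% of 8775 genes higher and 4.48% lower, with a median log2 ratio of -0.14 against 0.04 for all genes. Ube2c was lower, with 82 UMIs (16.0 CPM) in knock-in and 229 UMIs (33.7 CPM) in wild-type T-gated cells, a log2 ratio of -1.08 (-1.46 to -0.71). Nusap1 was lower with 41 and 94 UMIs (-0.79), and Tpx2 was higher with 37 and 29 UMIs (0.76). Cenpa had 686 and 1033 UMIs (-0.19), Birc5 156 and 215 (-0.06) and Top2a 150 and 221 (-0.15). Of the 17 ratios, 13 had an interval across 0, and single cells held up to 24.3% of a gene's UMIs in the knock-in and up to 24.5% in the wild-type T gate.

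Of the 13 S-phase genes in T-gated cells, 3 were called higher and 1 lower, beside 6.36% of 8775 genes higher and 4.48% lower. Rrm2, Tyms and Tk1 were higher, and Uhrf1, which keeps DNA methylation through replication, was lower. The 1 lower call is near the share over all genes. Tk1 had 47 knock-in and 28 wild-type UMIs (1.15), Tyms 109 and 87 (0.73), Rrm2 82 and 70 (0.63), and Uhrf1 18 and 47 (-0.98). Pcna had 755 and 1108 UMIs (-0.15), Mcm6 313 and 419 (-0.02) and Gmnn 194 and 269 (-0.07). Stmn1 had 877 and 967 UMIs (0.26), Tubb5 1805 and 2315 (0.05) and Tuba1b 874 and 1232 (-0.09), none of them called. T-gated cells with at least 3 mitotic genes were 34 of 1839 (1.85%, 1.28 to 2.57) in the knock-in and 39 of 1958 (1.99%, 1.42 to 2.71) in the wild-type library.

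For all 17 mitotic genes that could be compared in both gates, the ratio in B-gated cells was above that in T-gated cells. The summed mitotic UMIs had a log2 ratio of 0.71 (0.66 to 0.77) in B-gated and -0.21 (-0.29 to -0.12) in T-gated cells. The difference between the gates could not be tested with 1 library per genotype.

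**Figure D4:**
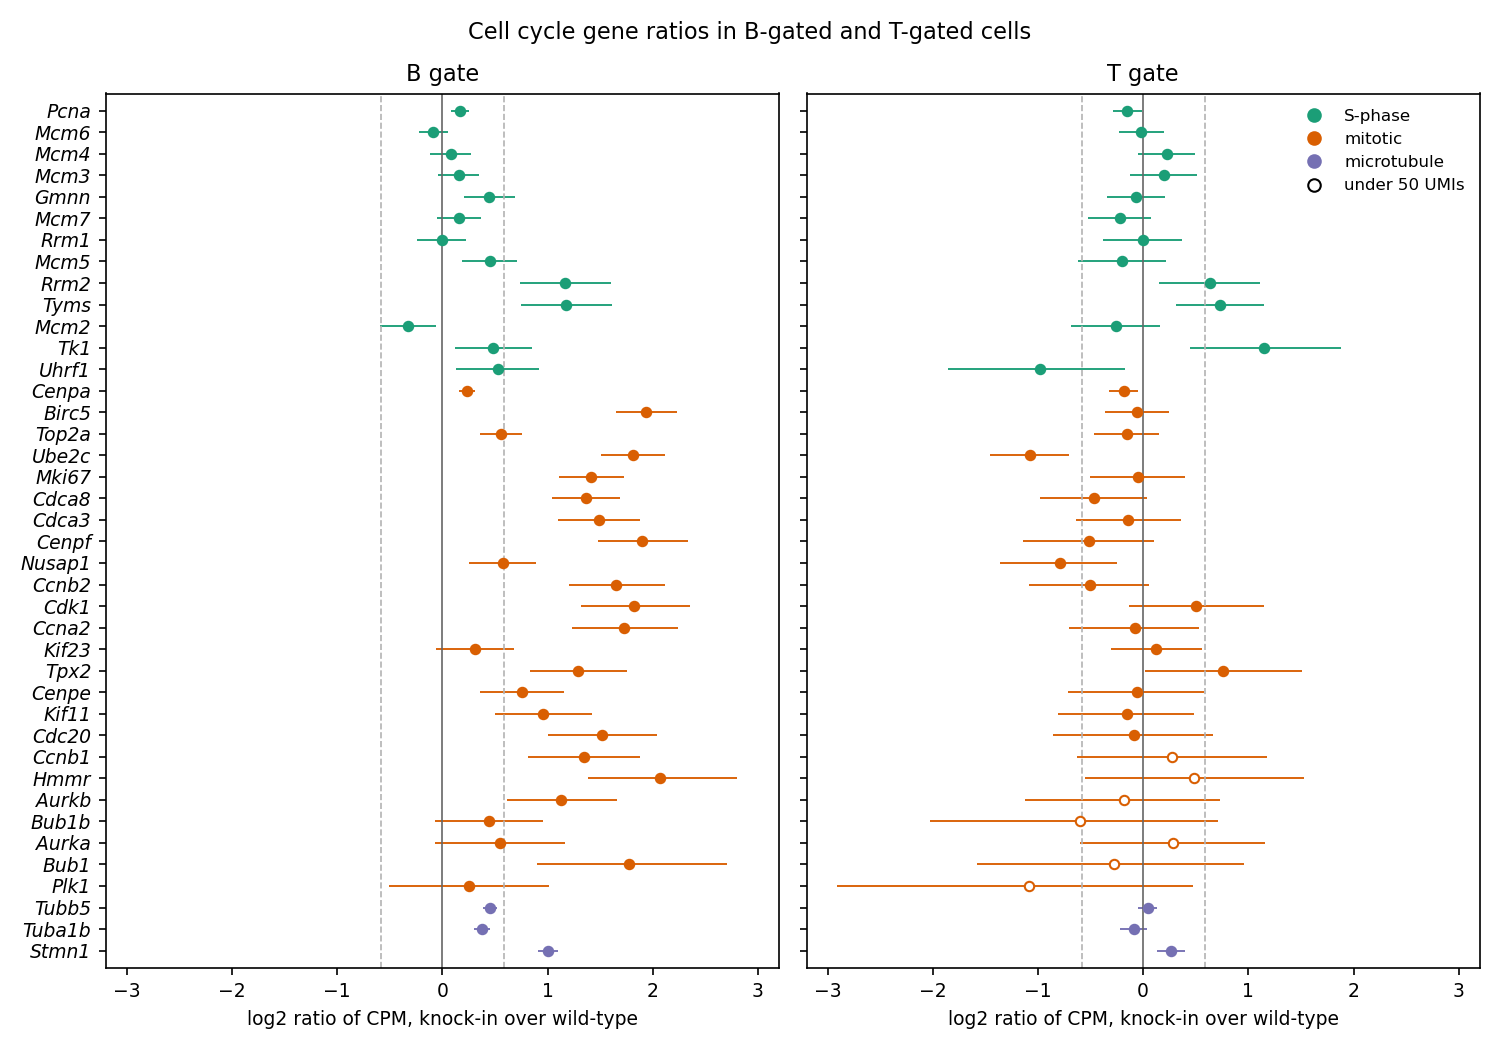
Log2 ratio of CPM, knock-in over wild-type, of each of the 40 genes in B-gated (left) and T-gated cells (right) with 95% intervals for counting error; dashed lines mark a 1.5-fold difference and open points genes under 50 UMIs. Mitotic genes lie right of 0 in the B gate, up to 2.07 for Hmmr, and on both sides of 0 in the T gate.

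Plasma-gated cells were the richest of the lymphoid gates in mitotic transcripts, with 969 and 866 CPM summed over the 24 genes in the knock-in and the wild-type library. The same sum was 438 and 267 CPM in B-gated and 347 and 401 CPM in T-gated cells. In the plasma gate, 34 of 156 knock-in cells (21.8%, 15.6 to 29.1) and 4 of 31 wild-type cells (12.9%, 3.63 to 29.8) had at least 3 mitotic genes. Median depths were 14257 and 13260 UMIs, and after thinning the shares were 9.62% (15 cells) and 3.23% (1 cell).

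Of 17 mitotic genes with enough UMIs in the plasma gate, 5 were called higher and 2 lower, beside 16.5% of 3624 genes higher and 9.63% lower. Ube2c had 288 knock-in and 41 wild-type UMIs (log2 ratio 0.48), Birc5 240 and 39 (0.29) and Cenpa 238 and 34 (0.47), none of them called. Cdc20, Ccnb2, Ccnb1, Cdca3 and Cdk1 were higher, from 52, 79, 52, 126 and 87 knock-in UMIs and 2, 6, 4, 14 and 11 wild-type UMIs. Nusap1 (75 and 27 UMIs, -0.86) and Cenpe (44 and 15 UMIs, -0.78) were lower. Of the 10 S-phase genes with enough UMIs, 1 was higher and 4 were lower: Rrm2 (125 and 12 UMIs, 1.05) against Pcna (182 and 63, -0.80), Mcm6 (110 and 34, -0.64), Mcm3 (46 and 19, -1.06) and Rrm1 (43 and 27, -1.66). Gmnn had 81 and 17 UMIs (-0.08), and the microtubule genes Tubb5, Tuba1b and Stmn1 had log2 ratios of 0.37, -0.01 and 0.13. These ratios rest on few wild-type cells. For every mitotic gene with enough UMIs, the highest of the 31 cells held 33.3% or more of its UMIs. That cell was found for each gene apart and need not be the same one.

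The plasma gate was larger in the knock-in library, at 1.86% of cells against 0.327% in the wild-type library. It held 34 of the 205 knock-in cells with at least 3 mitotic genes (16.6%) but 4 of the 139 wild-type cells (2.88%). Without plasma-gated cells, 18 of the 24 mitotic genes were called higher over the other cells, with a median log2 ratio of 0.90. The share of all genes called in those cells was not computed. With each gate given the same share of cells in both libraries, the median was 0.81.

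**Figure D5:**
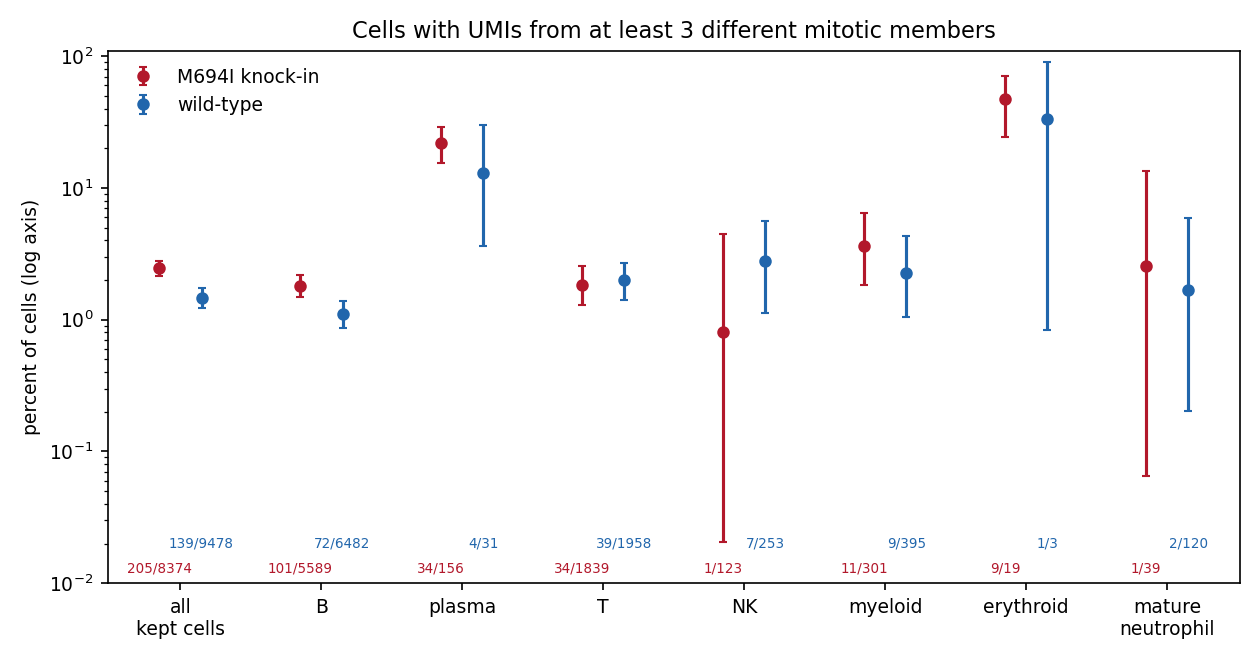
Percent of cells (log axis) with UMIs from at least 3 different mitotic genes in all kept cells, in each gate and in mature neutrophils, with 95% Clopper-Pearson intervals; the cell counts stand below. Plasma and erythroid gates lie highest in both libraries, and the knock-in point lies above the wild-type point in B cells (1.81% and 1.11%) but not in T cells (1.85% and 1.99%).

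In the myeloid gate, 4 mitotic genes had enough UMIs and 3 were called higher, beside 6.58% of 5247 genes higher and 11.1% lower. Birc5 had 67 knock-in and 23 wild-type UMIs (log2 ratio 2.06), Ube2c 68 and 16 (2.60) and Top2a 36 and 14 (1.88), while Cenpa had 240 and 238 (0.53). Stmn1, with 213 and 92 UMIs (1.73), and Tubb5, with 309 and 251 (0.82), were also higher, and Tuba1b had 222 and 244 UMIs (0.38). Pcna, the S-phase gene with enough UMIs, had 144 and 228 UMIs (-0.15). Cells with at least 3 mitotic genes were 11 of 301 (3.65%, 1.84 to 6.44) in the knock-in and 9 of 395 (2.28%, 1.05 to 4.28) in the wild-type library.

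Granulocyte precursor genes were unequally found in these myeloid cells. At least 3 granulocyte precursor genes, such as Fcnb, Ngp, Camp and Ms4a3, were detected in 5 of the 11 knock-in cells and 0 of the 9 wild-type cells, which allows a share of up to 33.3%. T-gated cells with at least 3 mitotic genes, which should lack these genes, met that rule in 0 of 34 and 0 of 39 cells (up to 8.82% and 7.69%). Among the myeloid cells with fewer mitotic genes, 10 of 290 knock-in and 3 of 386 wild-type cells met it. Those cells were shallower, with medians of 3016.5 and 3234 UMIs against 12005 and 8888.

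The NK gate had enough UMIs for 1 mitotic gene, Cenpa, with 49 knock-in and 99 wild-type UMIs (log2 ratio 0.23), and for 2 S-phase genes. Of these, Mcm6 was called lower, with 21 and 83 UMIs (-0.74), and Pcna was not, with 42 and 98 UMIs (0.02), beside 12.5% of 2546 genes called lower and 6.4% higher. Stmn1, Tubb5 and Tuba1b had log2 ratios of 0.23, 0.14 and 0.04. At least 3 mitotic genes were found in 1 of 123 knock-in and 7 of 253 wild-type NK-gated cells. The erythroid gate was too small for ratios. Its 19 knock-in cells held 356 mitotic UMIs, of which Mki67 gave 87, Birc5 41 and Ube2c 38, and its 3 wild-type cells held 17. At least 3 mitotic genes were found in 9 of the 19 and 1 of the 3 cells.

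B-gated cells with at least 3 mitotic genes were larger than the rest, with medians of 8437 and 8527 UMIs against 1810.5 and 2338 in the other B-gated cells. Mef2b, a transcription factor of germinal centre B cells, was detected in 27 of 101 knock-in and 6 of 72 wild-type such cells (26.7% and 8.33%), and in 0.966% and 0.655% of the other B-gated cells. Rgs13, a brake on G protein signalling in germinal centre B cells, was detected in 15 of 101 and 11 of 72 (14.9% and 15.3%), and in 1.59% and 1.15% of the others. T-gated cells with at least 3 mitotic genes, which should lack both genes, had either of them in 0 of 34 knock-in and 0 of 39 wild-type cells (up to 8.82% and 7.69%), at medians of 7394.5 and 11596 UMIs. Bcl6, a repressor needed by germinal centre B cells and also used by some T cells, was detected in 11 of 101 and 16 of 72 B-gated cells (10.9% and 22.2%), and in 3 of 34 and 4 of 39 T-gated cells with at least 3 mitotic genes. These 3 genes were singled out after their values had been seen.

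Coreceptor genes were unequally found in T-gated cells with at least 3 mitotic genes. Cd4 was detected in 5 of 34 knock-in and 20 of 39 wild-type cells (14.7% and 51.3%), and in 9.81% and 12.9% of the other T-gated cells. Cd8a or Cd8b1 was detected in 20 of 34 knock-in and 13 of 39 wild-type cells (58.8% and 33.3%), and in 34.4% and 25.8% of the others. These detection shares are not matched for depth: medians were 7394.5 and 11596 UMIs, against 2434 and 2991 in the other T-gated cells. Scaled to CPM, Cd4 stood at 23.8 and 85.8, against 45.0 and 48.9 in the others, so in the knock-in library it was lower. Cd8a and Cd8b1 summed to 438 and 255 CPM, against 362 and 207. B-gated cells with at least 3 mitotic genes, which should lack these genes, had Cd4 in 0 of 101 and 0 of 72 cells (up to 2.97% and 4.17%), and Cd8a or Cd8b1 in 2 and 0. Ikzf2, found in regulatory and some activated T cells, was detected in 19 of 34 and 20 of 39 cells, and in 18.1% and 14.5% of the other T-gated cells. Foxp3, the regulatory T cell factor, was detected in 1 and 4 cells.

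Further cell cycle genes, listed by phase, were read in the same way over all kept cells. Of 33 other S-phase genes, 7 were called higher and 0 lower, with a median log2 ratio of 0.19, beside 5.67% of all genes called higher and 7.2% lower. The highest were Pclaf, a partner of PCNA, with 1419 knock-in and 823 wild-type UMIs (1.12), Rad51ap1 (118 and 69, 1.11) and Cdc45 (83 and 65, 0.69). The lowest were Exo1 (31 and 53, -0.44), Cdt1, which licenses origins (816 and 1346, -0.38), and Blm (298 and 479, -0.35). Of 38 other G2 and mitotic genes with enough UMIs, of 43 listed, 15 were called higher and 0 lower beside those same shares, with a median of 0.44. Pbk (67 and 30 UMIs, 1.5), Nek2 (85 and 42, 1.36) and Nuf2, a kinetochore subunit (68 and 36, 1.26), were the highest, and Gas2l3 (63 and 115, -0.53), Hjurp (438 and 582, -0.07) and Spag5 (42 and 54, -0.02) the lowest.

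Of 31 regulators of the cycle with enough UMIs, 1 was called higher and 0 lower, with a median log2 ratio of 0.02. That count is near the 5.67% of all genes called higher. The one called was Cdk4, the G1 kinase, with 2114 knock-in and 1720 wild-type UMIs (89.1 and 57.3 CPM, 0.64). The inhibitor gene Cdkn2c (209 and 189 UMIs, 0.48) and the quiescence factor Klf2 (43134 and 41933 UMIs, 0.38) followed. The lowest were Foxo1, another factor of resting lymphocytes (2208 and 3941 UMIs, -0.50), cyclin D gene Ccnd2 (2177 and 3783, -0.46) and Lin9 of the DREAM complex (245 and 387, -0.32).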

How the data were processed

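Spleen cells of 1 M694I knock-in and 1 wild-type library were read as the raw UMI counts per gene and barcode that the authors deposited, without normalization. The file headers name Cell Ranger 6.1.2; Cell Ranger 7.1.0, Seurat 5.0.3 and the mm10 build come from the submitters' processing notes, so it is unclear which version made the counts. For the annotation and the barcode calling, nothing is given in these sources. A target of 10000 cells per library is given in the labels.

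Barcodes below 500 UMIs or 200 genes, or with 10% or more of their UMIs from mitochondrial genes, were dropped, and 209 knock-in and 255 wild-type cells with a Scrublet score of at least 0.35 (scanpy 1.11.5, expected rate 0.08) were removed as doublets. That score was set after the data had been seen, since the automatic limit moved with the random seed. Gates counted different markers per cell: at least 2 erythroid, then at least 4 of 8 plasma markers, then the B, T, NK or myeloid list with the most. UMIs were summed per library and gate and scaled to CPM over the gate's total. Ratios need at least 30 cells per library, carry conditional binomial intervals, and take calls from 50 UMIs upwards at 1.5-fold (0.585 on the log2 scale). Sums carry Poisson and shares Clopper-Pearson intervals, all for counting error only. The ratios and their intervals were tested on simulated counts, drawn independently for each gene and library without single cells. That test therefore says nothing about intervals where few cells hold most UMIs. Promoter letters came from RefSeq and gene positions from GENCODE M21.

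The genes, lists and gates were chosen with earlier results of these data known. Genes are named by rank in UMIs and ratio within each group and gate; the other members named by role, the sub-lineage genes and those in counts of 5 or fewer were picked once values were known. Alternatives changed filters, gates, scaling (TMM factors, edgeR 4.0.16, R 4.3.3), thinning, weighting, limits and members. Leaving out Cenpa and leaving out the plasma gate were added after the data had been seen.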

Additional observations from a re-analysis of the deposited data

Results flagged for a closer look

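Some effects of the knock-in over the wild-type library pointed in opposite directions in 2 gates, with intervals on either side of 0; none of these differences was tested, since each genotype is 1 library. The summed mitotic UMIs had a log2 ratio of 0.71 in B-gated and -0.21 in T-gated cells, 0.919 apart. In plasma-gated cells the same sum stood at 0.16, which is 0.369 above the T gate, and in myeloid cells at 0.98, which is 1.19 above it. The summed S-phase UMIs had log2 ratios of 0.16 in B-gated, -0.51 in plasma-gated and -0.34 in NK-gated cells, so the B gate lay 0.669 above the plasma gate and 0.507 above the NK gate. Ube2c stood at 1.81 in B-gated and -1.08 in T-gated cells, a gap of 2.89. In the plasma gate the comparison rests on 31 wild-type cells, and in the T gate 1 wild-type cell held 16.6% of the Ube2c UMIs; the part of this in the differences was not tested.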

How the results depend on the processing

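No paired analysis was possible because each genotype has 1 library and the labels give no replicate numbers. Of 160 recomputed summary values, 144 stayed close to the reported value and 156 kept its sign. Of 286 values of single genes, 245 and 275 did. These totals overstate stability, since counts of called genes cannot change sign and a changed UMI minimum leaves single-gene ratios as they were. Counting cells from 2 different mitotic genes upwards turned the log2 ratio of their share to -0.25 in B-gated (reported 0.70) and -0.016 in all kept cells (reported 0.74). After thinning, the same ratio from 2 genes was 0.48 in B-gated and 0.52 in all kept cells. The share of cells with S-phase genes (reported -0.09) moved to -0.44 from 2 genes, 0.73 from 5 genes and 0.71 after thinning. Thinning each cell to 1000 UMIs also moved the B-gated mitotic share to 1.22, the median log2 ratio of mitotic genes to 0.21 in B-gated and 0.59 in all cells, the number called higher to 2 of the 6 and 8 of the 14 that still had enough UMIs, and the microtubule median (reported 0.33) to 0.20. That median was 0.38 with TMM factors, 0.38 without immunoglobulin and haemoglobin UMIs in the total and 0.23 under 5% mitochondrial UMIs. The mitochondrial limit also lowered Birc5 to 1.00, Ube2c to 0.89, Mki67 to 1.09, Cenpf to 0.97, Cdca3 to 0.99, Cdca8 to 0.75, Top2a to 0.35 and Rrm2 to 1.05, each below its interval. With it, the mitotic median over all cells was 0.87, and Hmmr, Cenpa, Nusap1 and Kif23 stayed within their intervals. Equal gate shares moved the mitotic median over all cells to 0.81. A minimum of 200 UMIs left 11 mitotic genes in the B gate, of which 7 were called higher. Called at 2-fold, 14 mitotic genes were higher over all cells and 15 in the B gate. At a limit below 1.5-fold they were 21 and 21. For these counts at changed settings, the share of all genes called was not computed. TMM factors shifted all ratios by 0.06 over all cells, 0.03 in the B gate and -0.06 in the T gate. Knock-in cells were shallower (medians of 2017 and 2522 UMIs), which limits unthinned shares of cells. With 1 library per genotype, no value separates genotype from differences between mice or preparations.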

Other observations

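Cells that no gate took also held mitotic transcripts. At least 3 mitotic genes were found in 15 of 347 ungated knock-in cells and 7 of 356 ungated wild-type cells (4.32% and 1.97%), and Kit, the receptor of blood-forming progenitors, was detected in 3 of those 15 and 0 of those 7, and in 10.8% and 12.3% of the other ungated cells, at medians of 7533 and 10264 UMIs against 2584 and 3028. In B-gated cells with at least 3 mitotic genes, Vpreb3, a gene of immature and germinal centre B cells, was detected in 54 of 101 knock-in and 33 of 72 wild-type cells (53.5% and 45.8%), and in 26.1% and 28.4% of the other, shallower B-gated cells, while Rag1, Rag2, Vpreb1 and Igll1 of early B cell precursors were detected in 0 of 101 and 0 of 72. Summed over these genes and Cd93, the level was 164 and 138 CPM, against 189 and 166 CPM in the other B-gated cells. Among the barcodes removed as doublets, 8 knock-in and 6 wild-type ones had at least 3 mitotic genes.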
